A study of Mus musculus with 6 samples.

Results

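The replication-dependent histone genes were read in brain lesions of wild type and transgenic mice. Members were the genes with symbols of the H1f, H2ac, H2bc, H3c and H4c series that had a probe set carrying no other gene symbol, and each gene was read from the probe set with the highest mean over all 6 arrays. This gave 29 genes of the 22180 that had such a probe set: 8 linker histones H1, 6 H2A, 8 H2B, 7 H4 and no H3. Only H2ac21 offered a choice, with a mean log2 intensity of 6.21 for the probe set taken and 5.49 for the one passed over. The family was put forward because H2ac10 was already known to be lower in the transgenic lesions, so the values of H2ac10 are given as a description with no test.

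The study asked what astrocytes do in developmental myelination and in early myelin repair. Each of 6 Affymetrix arrays was hybridised with total RNA from 1 macrodissected brain lesion, 3 from wild type mice (arrays WT1, WT2 and WT3) and 3 from transgenic mice (TG1, TG2 and TG3). Mice of both genotypes were 5 to 6 weeks old, received an LPC lesion, were injected with CID 48 hours later and were killed 7 days after the lesion. LPC, in demyelination work, is lysophosphatidylcholine, a detergent-like lipid that strips myelin, and CID is the agent that triggers ablation of astrocytes in the transgenic mice. The transgene was made so that GFAP+ astrocytes that do not divide can be removed by induced apoptosis, and the promoter that drives it was not stated in the labels. No group without a lesion or without CID was used here. The labels do not say whether each lesion is from a different mouse. A p-value here reflects the scatter among these arrays, and how much of that scatter is technical is not known.

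Replication-dependent histones package newly copied DNA. Their genes lie in clusters, are transcribed mainly in S phase, and make messages that end in a stem-loop bound by Slbp in place of a poly(A) tail. H2A, H2B, H3 and H4 form the core around which DNA is wound, and H1 proteins bind the linker DNA between cores. In a repairing lesion these messages come mostly from dividing cells, and glial precursors, microglia and neuroblasts are known to divide there. The symbol rule also took in genes that do not have this biology: H1f10 is a linker histone made outside S phase, H1f6 and H1f7 are linker histones of the testis, H1f8 is that of the oocyte, and H2ac1 and H2bc1 are testis histones.

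Of the 29 members, 27 had a promoter entry in the RefSeq table (build GRCm38.p6). The 150 bases before the annotated start are shown for the 4 members whose transgenic arrays all lay below all wild type arrays, and for H2bc18 and H4c12, bright members whose groups overlapped. Each is written 5′ to 3′ on the strand of its gene, and capitals mark a searched motif or its reverse complement. The motif of the TATA box was taken as TATAAA. The box that many histone promoters carry a little further upstream was taken as CCAAT. For the octamer element known from H2B promoters the letters were ATTTGCAT. For the H1 box, an element of linker histone promoters, the letters were AAACACA.
H1f2: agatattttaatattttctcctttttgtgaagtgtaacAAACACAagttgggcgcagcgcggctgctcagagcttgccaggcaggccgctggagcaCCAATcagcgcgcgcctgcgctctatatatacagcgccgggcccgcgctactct
H1f5: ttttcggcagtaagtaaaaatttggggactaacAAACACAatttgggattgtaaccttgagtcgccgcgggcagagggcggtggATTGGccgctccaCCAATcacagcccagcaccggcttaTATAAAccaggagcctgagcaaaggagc
H2ac10: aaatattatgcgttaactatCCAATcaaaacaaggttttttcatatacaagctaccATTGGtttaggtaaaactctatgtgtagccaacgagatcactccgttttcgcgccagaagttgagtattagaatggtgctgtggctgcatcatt
H2bc3: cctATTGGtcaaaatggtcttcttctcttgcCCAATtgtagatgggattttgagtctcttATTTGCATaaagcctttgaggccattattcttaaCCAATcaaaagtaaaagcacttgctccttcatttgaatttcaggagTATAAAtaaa
H2bc18: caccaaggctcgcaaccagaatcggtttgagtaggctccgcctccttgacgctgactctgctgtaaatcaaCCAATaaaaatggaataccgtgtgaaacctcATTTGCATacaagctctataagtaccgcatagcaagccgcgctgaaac
H4c12: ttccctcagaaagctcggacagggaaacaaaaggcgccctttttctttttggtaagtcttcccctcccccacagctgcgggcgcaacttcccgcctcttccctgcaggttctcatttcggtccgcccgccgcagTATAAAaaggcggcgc

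The H1f2 stretch is chr13:23738657-23738806, plus strand, and that of H1f5 is chr13:21780626-21780775, minus strand. Those of H2ac10 and H2bc3 are chr13:23533725-23533874, plus strand, and chr13:23746584-23746733, plus strand. The H2bc18 stretch is chr3:96269550-96269699, plus strand, and that of H4c12 is chr13:21750554-21750703, minus strand. Both linker histone promoters hold an H1 box and a CCAAT box, the H2bc3 and H2bc18 promoters hold the octamer with CCAAT boxes, and the H4c12 window holds only a TATA box. H2ac10 shows CCAAT boxes on both strands and no octamer in its window.

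The 250 bases upstream were searched on both strands for the same 4 motifs in every gene of the family with a promoter entry, whether or not it had a probe set of its own. CCAAT was found in 17 of 17 H2A and 15 of 15 H2B promoters, in 7 of 10 H1, 8 of 10 H3 and 3 of 11 H4 promoters, and in 33.8% of all 32851 promoters of the table. The octamer was found in 6 of 17 H2A and 7 of 15 H2B promoters, in none of the H1, H3 and H4 windows, and in 1.6% of all promoters. AAACACA was found in 5 of 10 H1 promoters against 6.25% of all promoters, and in 2 of 17 H2A, 2 of 15 H2B, 0 of 10 H3 and 0 of 11 H4 promoters. TATAAA was found in promoters of every type, in 4 of 10 H1, 7 of 17 H2A, 7 of 15 H2B, 4 of 10 H3 and 6 of 11 H4 promoters, against 12.4% of all promoters. Many H2A and H2B genes lie head to head, so a pair of windows can share bases and so share a match. Among the 27 members, 20 held CCAAT, 13 TATAAA, 8 the octamer and 7 the H1 box. These matches describe the letters and were not tested against the array values.

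Transgenic was compared with wild type by limma on log2 intensities over all 41345 probe sets. No probe set reached an adjusted p under 0.05 (0% of probe sets and 0% of genes), with a smallest adjusted p of 0.213. At an unadjusted p under 0.05 there were 3668 probe sets, and without variance moderation the counts were 0 adjusted and 3210 unadjusted. No member, and no gene named below, therefore passed the test, and differences are given as measured values with their errors. The median probe set had a standard error of 0.19 and a 95% interval of 0.45 to either side on the log2 scale, which sets the size of difference these 6 arrays could resolve. In bulk tissue, fewer cells of a type and less RNA per cell cannot be told apart.

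TG2 stood apart from the other transgenic arrays in sex-linked genes. Xist, the RNA of the inactive X chromosome, stood at log2 intensities of 9.49, 9.30 and 9.30 in the wild type arrays and at 4.67, 9.14 and 4.42 in TG1, TG2 and TG3. The mean of the Y-linked genes ran from 2.78 to 3.10 over the wild type arrays and was 5.99, 3.39 and 6.32 in TG1, TG2 and TG3. TG2 was thus like the wild type arrays in these genes while TG1 and TG3 were not, and values of TG2 are given beside the results below. By these genes TG2 was not from the same mouse as TG1 or TG3. Whether TG1 and TG3, or the wild type lesions, shared a mouse is not known. On TG1 and TG3, sex as read from these genes and genotype both differed from wild type. Their parts in a difference that rests on those arrays cannot be told apart. Correlations between arrays were 0.980 to 0.984 within wild type, 0.93 to 0.97 within transgenic and 0.95 to 0.97 between groups. Array median log2 intensities were 5.34 in TG2 and 5.52 to 5.59 in the others.

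Among the members, a few linker and H2A genes and 1 H2B gene stood out with lower values in transgenic lesions. The medians of the H2B and H4 genes both lay near 0. Of 29 members, 17 had a lower and 12 a higher transgenic mean, against 51.3% lower among all genes, and their median difference was -0.027 on the log2 scale against -0.0068 for all genes. Of the members, 5 were lower at an unadjusted p under 0.05 (H1f2, H1f5, H2ac10, H2ac15 and H2bc3), where 3.06% of all genes were, and 0 were higher, where 3.93% were. Without H2ac10, the count was 4 of 28. In 4 members the transgenic arrays all lay below the wild type arrays, against 7.00% of all genes, in 1 every transgenic array lay above, against 8.38%, and in 24 the groups overlapped. Leaving H2ac10 out, 3 of 28 members (10.7%) had all transgenic arrays below the wild type arrays. The count of 5 became 3 without WT3, and 3 without TG3.

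**Figure D1:**
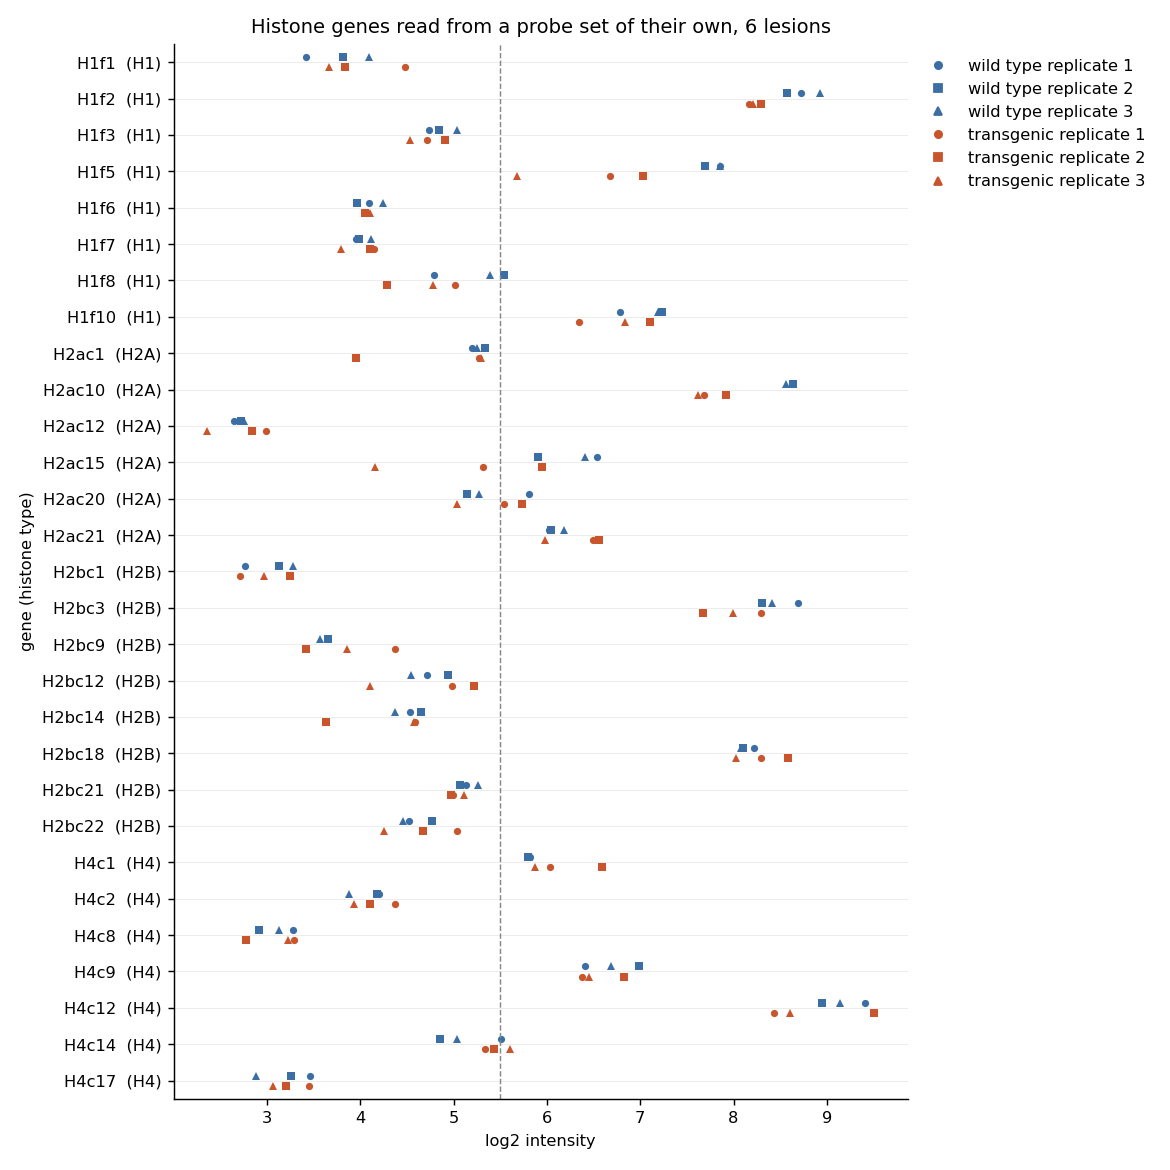
Log2 intensity of the 29 member genes (rows, by histone type) on each of the 6 arrays, with a point for each array and the groups told apart by colour. H1f2, H1f5, H2ac10 and H2bc3 show all 3 transgenic points left of all 3 wild type points, and H4c1 shows the opposite.

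The members were also set apart by level. The median of the mean log2 intensity over the whole table was 5.50. Of the 11 members at or above it, 8 were lower (49.2% of the 13046 genes at that level), 5 at an unadjusted p under 0.05 (3.46%) and 4 without overlap between groups (7.38%), with a median difference of -0.32 against 0.0050 for those genes. H2ac15 reached this level only through wild type (means of 6.29 and 5.14), so it had to differ. Without H2ac15 and H2ac10, 6 of 9 were lower, 3 at an unadjusted p under 0.05, with a median of -0.31. In 3 of these 9 all transgenic arrays lay below all wild type arrays. Of the 18 members below it, 9 were lower (54.4% of genes below it), 0 at an unadjusted p under 0.05 (2.49%), and their median was 0.011. No detection calls were used, so how many of the 18 dim members lay at background is not known. With the Y-linked level as a covariate the median of the 11 brighter members was 0.038, and in that fit TG2 is the one transgenic array near the wild type level. On TG1, TG2 and TG3 the median of these 11 genes' deviations from the wild type mean was -0.57, 0.031 and -0.47, and on TG2 it stood between 4 genes below every wild type array and 4 above every one.

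**Figure D2:**
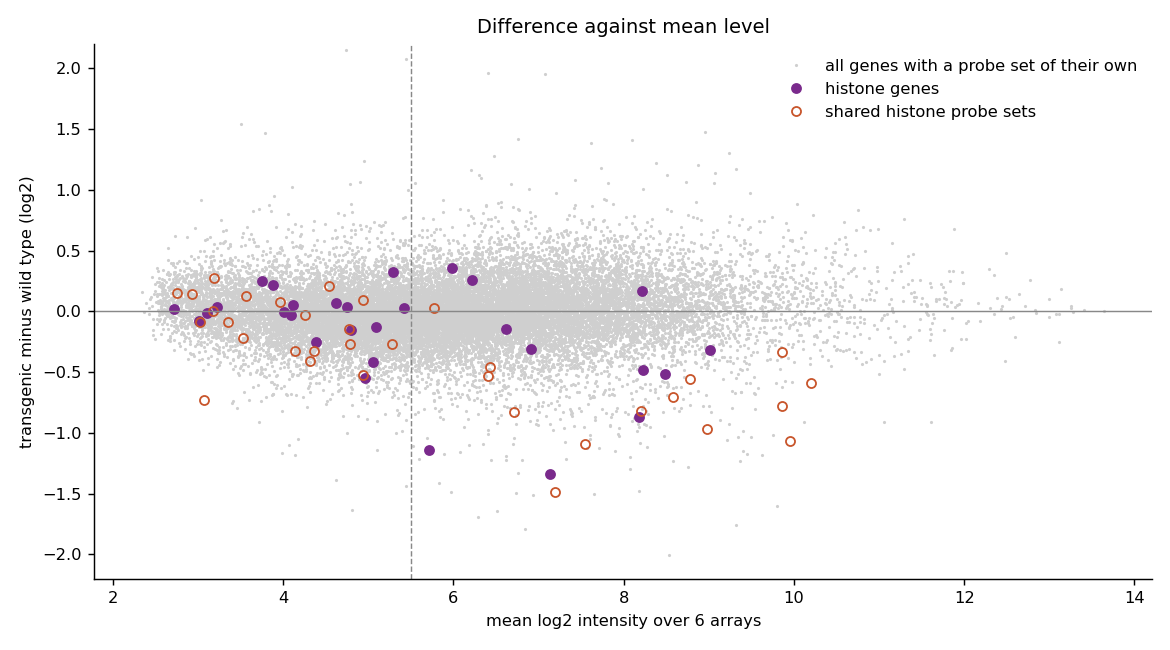
Difference (transgenic minus wild type, log2) against mean log2 intensity for all genes with their own probe set (grey), the member genes and the shared histone probe sets, with the table median of 5.50 marked; 6 genes outside the plotted range are left out. Histone points right of the mark lie mostly below 0, with a median of -0.32 for members and -0.74 for shared probe sets, and those left of it scatter about 0.

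The linker histones carried the largest single difference. H1f5, a somatic H1 of dividing cells, stood at log2 intensities of 7.85, 7.69 and 7.85 in wild type and 6.68, 7.03 and 5.68 in transgenic lesions. Its groups did not overlap and TG3 was the lowest by a wide margin. The difference was -1.34 (SE 0.33; limma adjusted p = 0.406), which is 2.52-fold. H1f2, another somatic H1, stood at 8.72, 8.58 and 8.92 against 8.16, 8.30 and 8.20. The groups of H1f2 did not overlap either, with a difference of -0.52 (SE 0.15; limma adjusted p = 0.460).

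The other linker histones overlapped between groups. H1f1 stood at 3.42, 3.81 and 4.09 in wild type and 4.48, 3.84 and 3.66 in transgenic lesions, a log2 difference of 0.22, and H1f3 differed by -0.15. The oocyte gene H1f8 stood at 4.79, 5.54 and 5.39 against 5.02, 4.28 and 4.78, with a difference of -0.55. The testis genes H1f6 and H1f7 differed by -0.027 and -0.0021. H1f10, made outside S phase, stood at 6.79, 7.23 and 7.19 against 6.35, 7.10 and 6.84 and differed by -0.31 with overlapping groups. Over the 8 linker genes 7 were lower with a median of -0.23, the 4 somatic S phase genes (H1f1, H1f2, H1f3 and H1f5) had a median of -0.34, and the other 4 had -0.17. With the Y-linked level as a covariate the median of the 8 was -0.0061.

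Among the H2A genes, H2ac10 was steady within each group. It stood at log2 intensities of 8.63, 8.64 and 8.57 in wild type and 7.68, 7.92 and 7.62 in transgenic lesions. All 3 transgenic arrays, TG2 included, lay below all wild type arrays, with means of 7.74 ± 0.16 and 8.61 ± 0.04 (SD, n = 3 each) and a difference of -0.87 (SE 0.14), or 1.83-fold. H2ac15 stood at 6.53, 5.91 and 6.41 against 5.32, 5.95 and 4.15. Here TG2 fell within the wild type range, and the difference of -1.14 (SE 0.43; limma adjusted p = 0.524) came from TG1 and TG3.

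The remaining H2A genes showed no common direction. The testis gene H2ac1 stood at 5.20, 5.33 and 5.25 in wild type and at 5.27, 3.95 and 5.30 in transgenic lesions, so its log2 difference of -0.42 came from TG2 alone. H2ac21 stood at 6.02, 6.05 and 6.19 against 6.49, 6.55 and 5.98 and differed by 0.26, with TG3 the lowest of all 6. H2ac12 stood at 2.65, 2.72 and 2.76 against 2.99, 2.84 and 2.36, differing by 0.024, and H2ac20 differed by 0.030. Of the 6 H2A genes, 3 were lower and their median was -0.20, which became 0.087 with the Y-linked level as a covariate.

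Of the H2B genes, H2bc3 alone had separate groups. It stood at log2 intensities of 8.69, 8.30 and 8.42 in wild type and 8.29, 7.67 and 7.999 in transgenic lesions. TG1 lay just under the lowest wild type array, and the difference was -0.48 (SE 0.20; limma adjusted p = 0.560). H2bc18, from the smaller cluster on chromosome 3, stood at 8.21, 8.11 and 8.08 against 8.29, 8.59 and 8.02. Its groups overlapped, with a difference of 0.17 (SE 0.18) whose 95% interval started at -0.25.

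The dimmer H2B genes scattered about 0. H2bc9 stood at 3.66, 3.66 and 3.57 in wild type and 4.38, 3.41 and 3.85 in transgenic lesions, a log2 difference of 0.25. H2bc14 stood at 4.53, 4.65 and 4.37 against 4.58, 3.63 and 4.58, so TG2 alone was lower and the difference was -0.25. The testis gene H2bc1 stood at 2.76, 3.13 and 3.28 against 2.71, 3.25 and 2.97 and differed by -0.082. H2bc12, H2bc21 and H2bc22 differed by 0.039, -0.13 and 0.072. The median of the 8 was -0.021 with 4 lower, and it was 0.095 without TG3.

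The H4 genes, which all encode the same core protein, had a median near 0. H4c12 stood at log2 intensities of 9.41, 8.95 and 9.14 in wild type and 8.44, 9.51 and 8.60 in transgenic lesions. TG1 and TG3 lay below wild type and TG2 above it, giving a difference of -0.32 (SE 0.29; limma adjusted p = 0.801). H4c1 was the one member with every transgenic array above every wild type array, at 5.82, 5.80 and 5.80 against 6.03, 6.59 and 5.87. The difference of H4c1 was 0.36 (SE 0.20; limma adjusted p = 0.663), most of it from TG2.

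H4c14 stood at 5.51, 4.86 and 5.03 in wild type and 5.33, 5.43 and 5.60 in transgenic lesions, a log2 difference of 0.32 with overlapping groups. H4c9 stood at 6.41, 6.98 and 6.69 against 6.37, 6.82 and 6.45 and differed by -0.14. The dim genes H4c17, at 3.46, 3.26 and 2.88 against 3.45, 3.20 and 3.06, and H4c8, at 3.28, 2.92 and 3.13 against 3.29, 2.77 and 3.23, differed by 0.037 and -0.0099, and H4c2 by 0.051. Of the 7 H4 genes, 3 were lower and the median was 0.037.

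**Figure D3:**
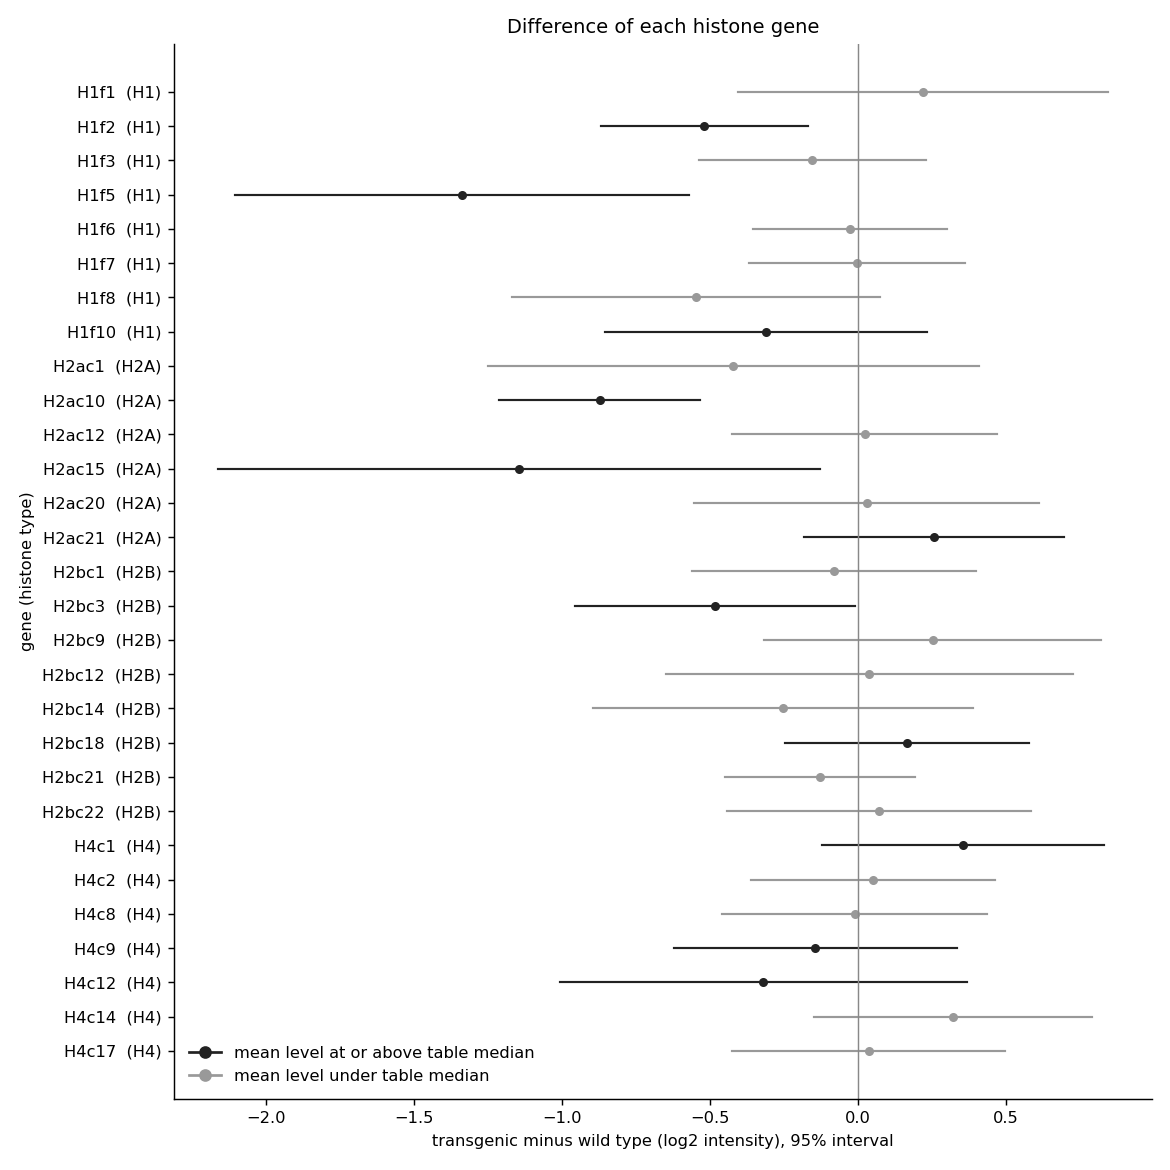
Difference (transgenic minus wild type, log2 intensity) of each of the 29 members with its 95% interval from the limma fit, grouped by histone type. H1f5, H2ac15 and H2ac10 lie farthest left at -1.34, -1.14 and -0.87, and the H4 genes straddle 0.

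By position, 21 members belong to the large histone cluster on chromosome 13. Of these, 13 were lower, with a median of -0.082. All 5 members lower at an unadjusted p under 0.05 were among these 21 members, H2ac10 included, where 3.06% of all genes were lower at that level. The 5 members of the chromosome 3 cluster had 1 lower and a median of 0.17, and the 3 members outside both clusters (H1f7, H1f8 and H1f10) were all lower. These counts cover single-symbol probe sets only. A bright shared probe set naming the chromosome 3 member H2ac20 with H2ac18 and H2ac19 differed by -0.59, and its groups did not overlap. Position and type are mixed here, and the difference between clusters was not tested.

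Histone genes of one type are near-identical copies, and most of the family was read by probe sets that name several genes. The annotation named 66 genes of the family in all: 29 had a probe set of their own and 37, among them all 12 H3 genes, appeared only in shared ones. After identical rows were merged, 34 distinct shared probe sets remained whose symbols were all histones. Of the 29 members, 14 were also named by such a probe set (median log2 difference 0.027), and 15 were not (median -0.13). A single-symbol probe set may still pick up related copies, so a member's value may not belong to that gene alone.

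Most shared probe sets were lower in transgenic lesions, and among the brighter ones all but 1. Of the 34, 25 had a lower transgenic mean (51.1% of all probe sets), 14 at an unadjusted p under 0.05 (4.05% of all probe sets), and 16 had all transgenic arrays below all wild type arrays (7.60%), with a median difference of -0.33 on the log2 scale. Of the 14 at or above the table median, 13 were lower (52.3% of all probe sets at that level), 12 at an unadjusted p under 0.05 (4.93%) and 13 without overlap between groups (9.01%). Their median difference was -0.74, with a range of -1.49 to 0.026 and limma adjusted p from 0.231 to 0.985. Of the 20 below the table median, 12 were lower (49.9%), 2 at an unadjusted p under 0.05 (3.18%), with a median of -0.087. One shared probe set names H2ac10 itself, and without it the count of 14 lower at an unadjusted p under 0.05 became 13 of 33. It is also among the brighter shared probe sets, where it was lower at that level without overlap, so their counts include it. Shared probe sets name overlapping sets of genes, so they are repeated readings of the same copies rather than separate genes.

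The H2B copies, whose protein pairs with H2A in the core, had 5 brighter shared probe sets. A probe set naming 11 H2bc genes (among them H2bc4, H2bc6 and H2bc8) and H4bc24 stood at log2 intensities of 10.57, 10.40 and 10.50 in wild type and 9.34, 9.67 and 9.25 in transgenic lesions. Its groups lay far apart for this table, with means of 10.49 ± 0.09 and 9.42 ± 0.22 (SD, n = 3 each) and a difference of -1.07 (SE 0.16; limma adjusted p = 0.231), or 2.10-fold. A second probe set, naming H2bc7, H2bc11, H2bc13 and H2bc15, stood at 10.30, 10.26 and 10.20 against 9.45, 9.55 and 9.43, a difference of -0.78 (SE 0.13). All 5 brighter shared H2B probe sets had transgenic arrays below all wild type arrays (9.01% of all probe sets at that level). Their median difference was -0.78.

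H3, which had no member of its own, was read only in this way, by 12 distinct probe sets. Of these, 8 were lower (51.1% of all probe sets) and 4 higher, and 3 were lower at an unadjusted p under 0.05 (4.05%). In 3 all transgenic arrays lay below all wild type arrays (7.60%), in 9 the groups overlapped, and the median log2 difference was -0.21. Each of the 12 named the same 4 or the same 8 genes, so they are repeated readings. The 2 at or above the table median were both lower. The probe set for H3c1, H3c8, H3c10 and H3c11 stood at log2 intensities of 9.64, 9.21 and 9.54 in wild type and 8.79, 8.51 and 8.19 in transgenic lesions, a difference of -0.96 (SE 0.20; limma adjusted p = 0.365). The probe set for 8 further H3 genes, among them H3c2 and H3c15, stood at 7.99, 8.17 and 8.11 against 6.81, 7.41 and 6.79. Its difference was -1.09 (SE 0.20; limma adjusted p = 0.297), or 2.13-fold. In both of these brighter H3 probe sets the groups did not overlap.

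Shared H2A probe sets ranged more widely. One naming H2ac18, H2ac19 and H2ac20 stood at log2 intensities of 10.56, 10.45 and 10.47 in wild type and 9.96, 9.93 and 9.80 in transgenic lesions, a difference of -0.59 (SE 0.13), while the probe set of H2ac20 alone differed by 0.030. One naming 12 H2A genes, H2ac10 and H2ac15 included, stood at 8.98, 8.94 and 8.88 against 8.32, 8.31 and 8.08, a difference of -0.70 (SE 0.14). The lowest difference among the shared probe sets was in a probe set for 10 H2A genes led by H2ac4, at 8.05, 8.03 and 7.71 against 6.27, 7.22 and 5.85. That difference was -1.49 (SE 0.34; limma adjusted p = 0.400), or 2.80-fold, and TG2 was again the transgenic array nearest to wild type. Another probe set for the same 10 genes, led by H2ac6, was the one brighter shared probe set that was not lower, with a difference of 0.026.

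H4 and H1 had 1 brighter shared probe set each. The one for H4c1, H4c2, H4c8, H4c9, H4c17 and H4c18 stood at log2 intensities of 9.17, 8.94 and 9.05 in wild type and 8.21, 8.79 and 8.49 in transgenic lesions, a difference of -0.56 (SE 0.18; limma adjusted p = 0.492). This is opposite in sign to the single-symbol probe sets of H4c1 (0.36) and of the dim genes H4c2 (0.051) and H4c17 (0.037). Those of H4c8 (-0.0099) and H4c9 (-0.14) had the same sign as the shared probe set. The one naming H1f4 with H2bc4, H2bc6 and H2bc8 stood at 6.62, 6.82 and 6.60 against 5.78, 6.29 and 6.36, a difference of -0.53 (SE 0.19).

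TG2 followed the other transgenic arrays in the brighter shared probe sets, which include the probe set naming H2ac10. All 14 of them lay below every wild type array on TG2, and 13 did so on TG1 and on TG3, where 30.9% of all probe sets at that level did on TG2, 41.7% on TG1 and 29.1% on TG3. The medians of their deviations from the wild type mean were -0.76, -0.59 and -0.84 on TG1, TG2 and TG3. Among the 11 brighter members 8 lay below every wild type array on TG1, 4 on TG2 and 8 on TG3, against 44.8%, 24% and 26.7% of all genes at that level, so the count on TG2 was near that of other genes. With the Y-linked level as a covariate all 14 brighter shared probe sets were lower, with a median of -0.56 and 7 at an unadjusted p under 0.05. That fit called more of all probe sets than the main fit did, so the shares given above do not apply to this count.

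**Figure D4:**
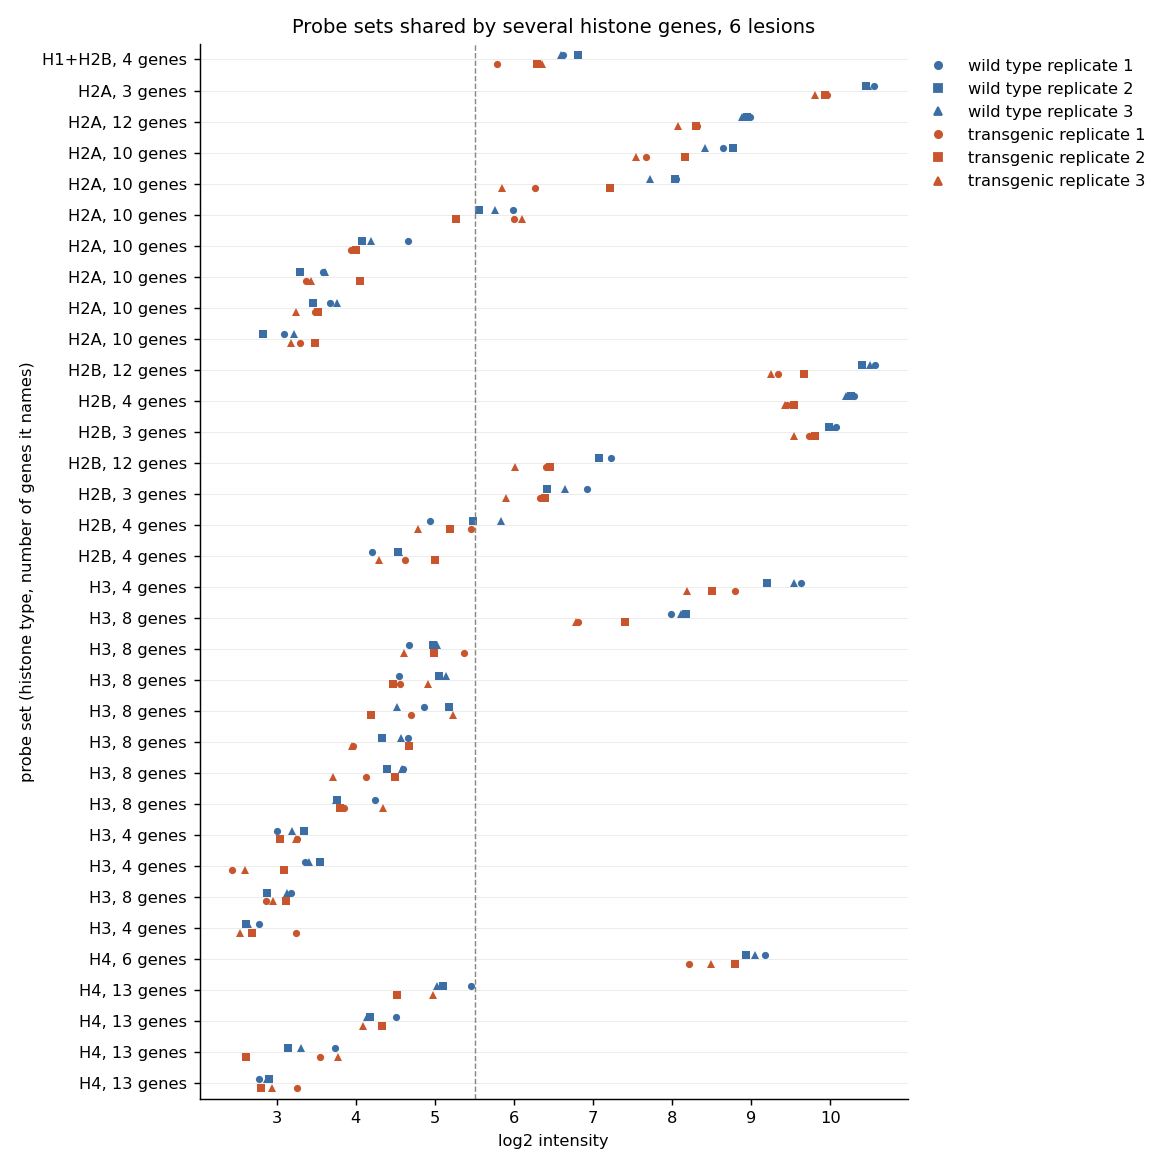
Log2 intensity of the 34 distinct shared histone probe sets (rows, named by histone type and number of genes) on each of the 6 arrays, with a point for each array and groups by colour. In 13 of the 14 probe sets at or above the table median all transgenic points lie left of all wild type points.

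Genes of S phase and mitosis were also lower on balance, mainly on TG2 and TG3. Of 48 genes in the list, 44 were measured, 36 were lower (51.3% of all genes), 5 at an unadjusted p under 0.05 (3.06%) and 0 were higher at that level (3.93%), with a median log2 difference of -0.20. Mki67, a marker of cycling cells, stood at 5.91, 6.13 and 5.75 in wild type and 5.50, 5.28 and 5.63 in transgenic lesions, so the groups did not overlap and the difference was -0.46 (SE 0.17). Mcm4, a subunit of the replicative helicase, differed by -0.38, Ccna2, the S phase cyclin A2, by -0.63, and the mitotic checkpoint kinase Bub1 by -0.43. Top2a, the topoisomerase of dividing cells, differed by -0.41 with overlapping groups. The array medians of this list lay -0.053, -0.35 and -0.23 from the wild type mean on TG1, TG2 and TG3. These medians are over genes that went both ways: on TG1, 15 of the 44 lay below every wild type array and 11 above, on TG2 31 and 7, and on TG3 30 and 3. The shares below were 34.1%, 70.5% and 68.2% on TG1, TG2 and TG3, against 34.8%, 33.5% and 27.9% of all genes. On TG1 the list was thus near the share of all genes.

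The genes that make and process histone messages showed no common direction. Of 25 listed, 23 were measured, 9 were lower and the median log2 difference was 0.021. Slbp, the stem-loop binding protein, stood at 7.28, 7.14 and 7.25 in wild type and 7.51, 7.71 and 7.20 in transgenic lesions, a difference of 0.25 with overlapping groups. Npat, the coactivator of histone gene transcription, differed by -0.24. Srrt, which links the cap-binding complex to RNA 3′ processing, was the 1 gene at an unadjusted p under 0.05 and differed by -0.37. Snrpg and Lsm10, proteins of the Sm and Lsm rings of small nuclear ribonucleoproteins, differed by 0.25 and 0.22.

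Replication-independent histones, whose messages carry poly(A) tails, had a median near 0 as well. Of 15 listed, 10 were measured, 4 were lower and the median log2 difference was 0.021. H2az1, an H2A.Z gene, stood at 6.05, 6.52 and 6.56 in wild type and 6.80, 6.97 and 6.89 in transgenic lesions. Every transgenic array was above every wild type array, and the difference of 0.51 (SE 0.18) had an unadjusted p under 0.05. H2az2, the other H2A.Z gene, differed by -0.39, Macroh2a2 by 0.36 and H2ab1 by -0.37. Of 25 histone chaperone and transport genes, 23 were measured, 13 were lower, 0 had an unadjusted p under 0.05 in either direction, and the median was -0.0087. Those with the smallest p were Mms22l at -0.28, Supt6 at -0.44, Ipo4 at 0.25 and Nap1l1 at 0.18.

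**Figure D5:**
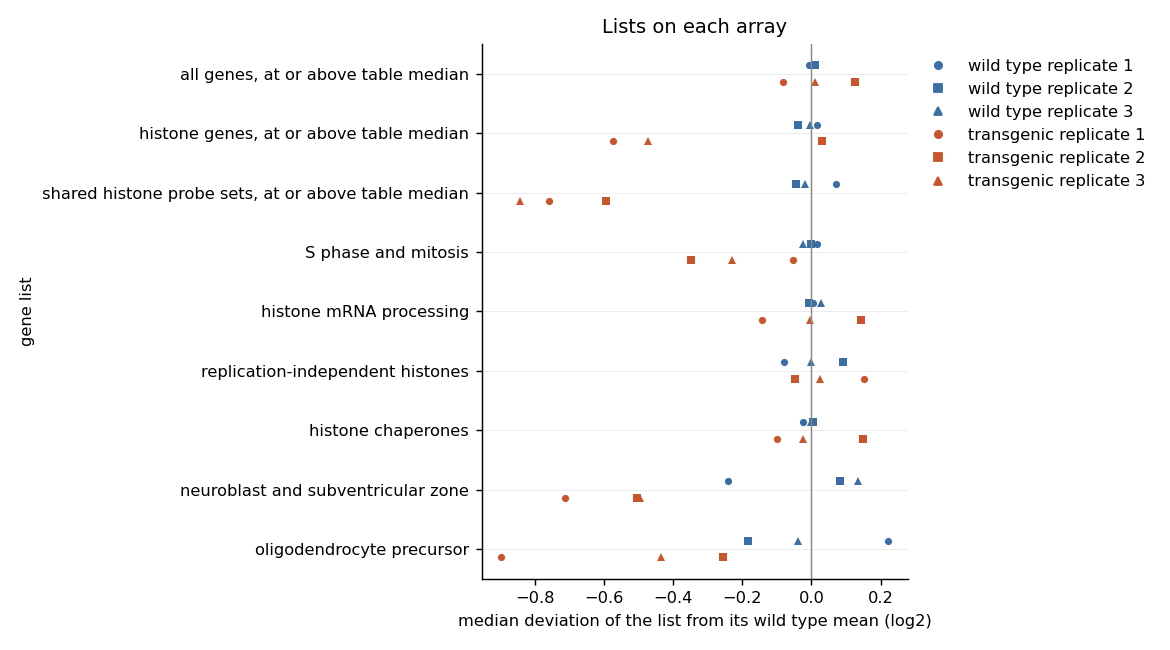
Median deviation from the wild type mean (log2 intensity) of the histone groups and of the accompanying gene lists, with a point for each of the 6 arrays and the groups by colour. The brighter shared histone probe sets lie at -0.76, -0.59 and -0.84 on the transgenic arrays, and the S phase and mitosis genes at -0.053, -0.35 and -0.23.

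Markers of neuroblasts, oligodendrocyte precursors, microglia, myelinating oligodendrocytes and striatal neurons were mostly lower in transgenic lesions. The median log2 differences of these marker lists were -0.59, -0.53, -0.53, -0.84 and -1.44. For astrocytes the median was -0.27 and for neurons 0.40. Endothelial, T cell and neutrophil markers had medians of -0.0045, 0.0070 and -0.0047. By gene, the groups overlapped in 3 of 5 neuroblast, 3 of 4 precursor and 4 of 5 microglia and macrophage markers. All 5 markers of neuroblasts and the subventricular zone were lower, with a summed linear intensity of 377 to 612 over the wild type arrays and 283 to 368 over the transgenic ones, and all 4 of oligodendrocyte precursors were lower, with sums of 587 to 819 against 370 to 581. Of 5 microglia and macrophage markers 4 were lower, 0 at an unadjusted p under 0.05, with overlapping sums of 968 to 3086 against 842 to 2223. All 3 myelinating oligodendrocyte markers measured were lower (2192 to 2941 against 901 to 1722; Mbp differed by -0.80 on the log2 scale), and 3 of 4 astrocyte markers were (1670 to 2282 against 1194 to 1665; Gfap differed by -0.37). By gene, all 4 astrocyte markers, Gfap included, overlapped between groups, with 0 at an unadjusted p under 0.05. All 4 striatal neuron markers were lower (334 to 1741 against 305 to 383), and 0 of 3 neuron markers were (4324 to 4806 against 4482 to 6204), with overlapping sums for both. Sums also overlapped for endothelial (172 to 175 against 138 to 210), T cell (69.0 to 78.5 against 64.4 to 94.6) and neutrophil markers (57.9 to 63.5 against 41.8 to 97.7). No marker is listed at 0, and the part of any of these cell types, or of the site of dissection, in the histone values was not tested.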

How the data were processed

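The authors deposited 1 table of linear probe set intensity values, made with Affymetrix Expression Console, whose RMA method the submitters' processing notes name. Versions and detection calls were not stated there. RMA yields log2 values, so the deposited intensity values appear to be back-transformed. Log2 was taken with no pseudocount (lowest value 3.73) and no filter. Columns of unknown samples numbered 0. Of 41345 probe sets, 23521 carried 1 symbol, 1814 several and 16010 none in the platform annotation. Differences (transgenic minus wild type) were fitted with limma 3.58.1 in R 4.3.3 and adjusted by the Benjamini-Hochberg method over all probe sets; the scripts were tested on simulated data. Members and lists were chosen with earlier results of these data known. Named genes were H2ac10; per histone type the 3 largest differences, the 2 highest and the 2 lowest means; up to 4 genes of smallest p per accompanying list; and Slbp, Npat, Mki67, Top2a, Gfap and Mbp. H3 has no result of its own, since no H3 gene had a probe set with 1 symbol. Promoters came from RefSeq. The alternatives were other normalizations, a filter on dim probe sets, array weights, a variance trend, a replicate block, a Y-linked covariate, leaving out arrays and other choices of histone probe sets; adding every distinct shared probe set was chosen after seeing the data.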

Additional observations from a re-analysis of the deposited data

How the results depend on the processing

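With 3 arrays a group, a difference under about 0.45 (log2) lay within the interval of a typical probe set, and dim probe sets have no detection calls. Restricting the table to probe sets at or above its median gave a median of -0.32 for all members. By type it gave -0.52 for H1, -0.87 for H2A, -0.16 for H2B and -0.14 for H4. Replication-independent histones had -0.073, and 2244 probe sets had an unadjusted p under 0.05. Only H2ac10, H2ac15 and H2ac21 remained in H2A, so the H2A median is the value of H2ac10. H2ac15 passed this filter only through its wild type level. The medians of the other types also rested on few genes. Array weights, which weighted TG3 at 7.67, gave medians of -0.20 for members and -0.13 for H4, 10 members lower at an unadjusted p under 0.05, and 2611 adjusted and 10793 unadjusted calls over all probe sets, with adjusted p of 0.00421 for H1f5, 0.0104 for H2ac15 and 0.0325 for H1f2. The Y-linked covariate, a fit in which TG2 is the 1 transgenic array near the wild type level, gave 1128 adjusted and 7854 unadjusted calls and medians of 0.046 for members, 0.038 for the brighter members, -0.0061 for H1, 0.087 for H2A, -0.36 for S phase and mitosis genes, 0.20 for processing genes, -0.056 for replication-independent histones and -0.56 for the brighter shared probe sets, of which 7 were lower at an unadjusted p under 0.05; H2ac1 then differed by -1.52 (adjusted p = 0.0170). Adding the 30 shared probe sets whose symbols all fit the rule gave medians of -0.22 for members and -0.42 for H2A. In that setting 18 entries were lower at an unadjusted p under 0.05 (4.05% of all probe sets in the main fit). Identical rows were not merged there, so some H2A readings were counted more than once, also among the 18. Adding all 34 distinct shared probe sets gave medians of -0.15 for members and -0.25 for H2B, and 19 entries lower at that level.

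Leaving out each array in turn gave medians of -0.10 to -0.034 for members, -0.34 to -0.13 for H1, -0.37 to -0.075 for H2A, -0.089 to 0.095 for H2B, -0.067 to 0.12 for H4, -0.48 to -0.11 for the brighter members, -0.78 to -0.67 for the brighter shared probe sets, -0.30 to -0.12 for S phase and mitosis, -0.037 to 0.095 for processing and -0.11 to 0.060 for replication-independent histones. The number of members lower at an unadjusted p under 0.05 was 3 to 5 and that of brighter shared probe sets 9 to 13. Over all probe sets there were 0 to 335 adjusted calls, 335 of them without TG2, and 2031 to 5168 unadjusted calls. Over all probe sets, same-numbered arrays did not deviate together (correlations of deviations 0.012, -0.098 and -0.068). A correlation over the whole table cannot exclude a pairing that shows in some genes, and the main fit assumed none. With the replicate block there were 0 adjusted and 2999 unadjusted calls. In that fit 5 members and 11 brighter shared probe sets were lower at an unadjusted p under 0.05. Of 616 pairs of a named gene and a setting, 567 kept direction and side of the threshold or moved within the spread, 40 moved and 9 passed the adjusted threshold; 9 of the 29 members kept their sign in all settings and 20 did not in at least 1.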

Other observations

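Probe sets that name the same copies gave different readings. For the same 10 H2A genes, 7 probe sets differed between transgenic and wild type by -1.49 to 0.27 on the log2 scale. For the same 8 H3 genes, 8 probe sets spanned -1.09 to 0.091, for the same 4 H3 genes 4 probe sets spanned -0.96 to 0.15, and for the same 13 H4 genes 4 probe sets spanned -0.52 to 0.14. In each of these sets at least 1 probe set was lower and at least 1 was higher in transgenic lesions.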
